A study of Rattus norvegicus with 24 samples.

Results

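The mitochondrial chromosome encodes 7 subunits of respiratory complex I, and the transcripts of these 7 genes, Mt-nd1, Mt-nd2, Mt-nd3, Mt-nd4l, Mt-nd4, Mt-nd5 and Mt-nd6, were followed in the rat heart septum. The members were taken by Ensembl ID from chromosome MT, and all 7 were found among the 37 annotated mitochondrial genes and the 30562 genes in all. Messenger RNA had been sequenced from the septum of 24 Sprague-Dawley rats, 6 in each of 4 groups, on day 28 after cardiac ischemia-reperfusion. The denervated group (BATsx) had lost the sympathetic nerves of its brown adipose tissue (BAT, a fat that burns fuel for heat) and received leptin through the cerebral ventricles. The ablated group (BATx) had lost its BAT and received leptin. The intact + leptin group kept its BAT and received leptin, the satiety hormone released by fat cells. The intact + vehicle group kept its BAT and received vehicle. All 4 groups carried the cardiac injury and the ventricular cannula, infusion ran for 28 days, and neither BAT operation was combined with vehicle, so an effect of an operation relative to vehicle cannot be told apart from that of leptin. Each library came from its own numbered rat.

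Complex I, NADH dehydrogenase, is the entry point of electrons from NADH into the respiratory chain and pumps protons across the inner mitochondrial membrane. In mammals its mitochondrially encoded subunits form the core of the membrane arm, while the arm that holds the electron carriers is encoded in the nucleus. The heart, whose contraction rests on oxidative phosphorylation, is among the tissues richest in mitochondrial transcripts. In mammals both strands of mitochondrial DNA are transcribed as long precursors that are cut, largely at transfer RNAs, into messengers, so genes of one strand start from a shared precursor and their steady levels also reflect processing and decay.

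In the deposited annotation (mRatBN7.2, chromosome MT) 6 of the 7 genes lie on the plus strand. Mt-nd1 spans bases 2740 to 3694 and Mt-nd2 3904 to 4942, Mt-nd3 9451 to 9798, Mt-nd4l 9870 to 10166, Mt-nd4 10160 to 11537 and Mt-nd5 11736 to 13565. The IDs of these 6, in the same order, are ENSRNOG00000030644, ENSRNOG00000031033, ENSRNOG00000033615, ENSRNOG00000031053, ENSRNOG00000029707 and ENSRNOG00000029971. Mt-nd6 (ENSRNOG00000029042) spans 13543 to 14061 and is the member on the minus strand. Mt-nd4l and Mt-nd4 share 7 bases on one strand, and Mt-nd5 and Mt-nd6 share 23 bases on opposite strands. Per the file header the counting command set no strand option, so reads of Mt-nd6 cannot be told apart from antisense reads of the same stretch, and reads that fall on nuclear copies of mitochondrial DNA may be split or lost. The smallest count of a member in any library was 39664 reads, for Mt-nd4l, so that counting error was small beside the spread between rats.

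Libraries held 71587993 to 122910706 assigned reads. The mitochondrial chromosome took 23.1% to 45.9% of them, and the 7 members together took 4.71% to 10.2% of all reads and 19.3% to 28.9% of the mitochondrial reads. The members' share of all reads averaged 5.98% ± 0.603 in denervated, 7.57% ± 1.65 in ablated, 7.48% ± 1.94 in intact + leptin and 8.28% ± 0.648 in intact + vehicle rats (SD, n = 6 each). Their share of mitochondrial reads averaged 22.4% ± 1.6, 22% ± 2.5, 22.2% ± 3.51 and 23.5% ± 1.9 in the same order of groups. Each gene is therefore given on both scales below: as CPM of a library size scaled by its TMM factor, and as a percentage of the reads on the mitochondrial chromosome. The files pair no gene ID outside these 7 with a name, so markers of cardiomyocytes or other cells and the nuclear complex I genes were not analysed here. In septum pieces a lower level of such transcripts may be fewer cardiomyocytes or less RNA per cell, and these cannot be told apart.

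Per length, the 7 transcripts spread over a wide range. Mt-nd1, the subunit that sits where the membrane arm meets the quinone-binding site, averaged 21116 ± 5544 CPM per kilobase over the 24 libraries (SD). Mt-nd2, one of the 3 antiporter-like proton-pumping subunits, averaged 18859 ± 7705 CPM per kilobase. Mt-nd1 was the higher of these in 17 libraries and Mt-nd2 in the other 7, so their levels did not separate. Mt-nd4, the second antiporter-like subunit, averaged 15423 ± 5347 CPM per kilobase and ranked 3 in 22 libraries. Mt-nd3, a small subunit whose loop is known in mammals to move when the enzyme turns inactive, averaged 10810.3 ± 2818 CPM per kilobase and ranked 4 in 21. Below these came Mt-nd4l, another small membrane subunit, with 4899 ± 3890.2 CPM per kilobase, Mt-nd6, a membrane subunit that takes part in coupling to the pumps, with 4776 ± 1476 CPM per kilobase, and Mt-nd5, the third antiporter-like subunit, with 3877 ± 2181 CPM per kilobase. Among these 3 the order changed between libraries: Mt-nd4l was above Mt-nd5 in 13 of 24 libraries and above Mt-nd6 in 7. Mt-nd1 was above Mt-nd5 in all 24 libraries, by 2.58 ± 0.48 on the log2 scale per length (SD), although both come from the same strand.

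**Figure D1:**
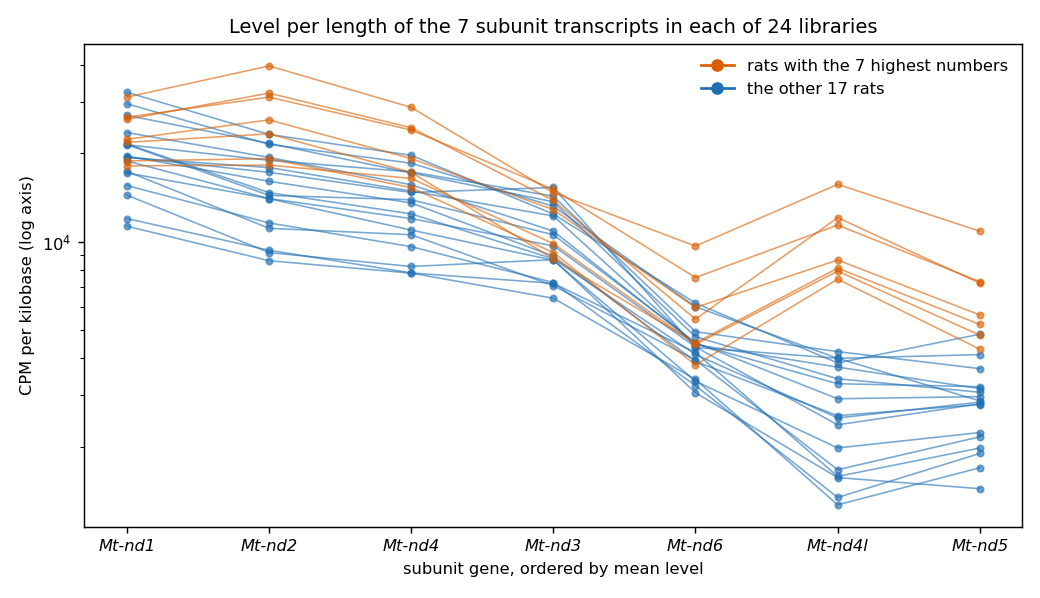
Level of each transcript in CPM per kilobase (log axis) in each of the 24 libraries, 1 line per library, with the genes ordered by mean log2 level. Lines of the rats with the 7 highest numbers (orange) run above most others at Mt-nd4l and Mt-nd5 and among the others at Mt-nd1 and Mt-nd3.

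The mixture of the 7 transcripts differed between libraries along the rats' numbers. The labels number each rat without saying what the number stands for, and the 7 rats numbered highest stood apart from the other 17. These are replicates 5 and 6 of the denervated group, replicate 6 of the ablated group, replicate 6 of the intact + leptin group and replicates 4, 5 and 6 of the intact + vehicle group, so that the vehicle group holds 3 of the 7. The point at which the numbers were divided was itself chosen from expression in these libraries, and the values that follow are therefore a description with no test. Mt-nd4l took 0.762% ± 0.0922 of mitochondrial reads in the 7 high-numbered rats and 0.258% ± 0.0552 in the 17 others (SD). Its difference in mean log2 share was 1.58, which is 2.99-fold. Its range was 0.622% to 0.928% in the high-numbered rats and 0.169% to 0.379% in the others, with no overlap. Mt-nd5 took 2.96% ± 0.479 in the high-numbered rats and 1.67% ± 0.196 in the others, again without overlap. Mt-nd2 took 7.08% ± 0.748 in the high-numbered rats and 5.2% ± 0.388 in the others, and here too no library of one set reached the other. Mt-nd4 went the same way, with 7.24% ± 0.474 in the high-numbered rats and 5.92% ± 0.405 in the others, but the sets overlapped. The remaining 3 transcripts moved little or the other way. Mt-nd1 took 5.74% ± 0.431 in the high-numbered rats and 6.25% ± 0.392 in the others, Mt-nd3 1.06% ± 0.0615 and 1.18% ± 0.191, and Mt-nd6 0.766% ± 0.125 and 0.751% ± 0.137. So 3 of the 7 members did not overlap between the sets, beside 27.3% of the 22 mitochondrial genes with enough reads to test, and 28.8% of all 17347 tested genes did not overlap between the sets in CPM.

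Ratios inside the family show the same split with the denominator removed. For every 100 reads of Mt-nd4 there were 10.5 ± 0.64 reads of Mt-nd4l in the high-numbered rats and 4.33 ± 0.715 in the others (SD), although in mammals both proteins are read from a shared messenger. For every 100 reads of Mt-nd1, Mt-nd2 had 123 ± 11.4 in the high-numbered rats and 83.6 ± 9.32 in the others, and for every 100 reads of Mt-nd5, Mt-nd6 had 26 ± 2.95 and 45.3 ± 7.52. Among the 15 other mitochondrial genes tested, the largest ratio of high-numbered to other rats was that of ENSRNOG00000033299 (204 bases), at 2.43. It and Mt-nd4l (297 bases) are the shortest genes outside those under 100 bases, and each shares its end with the start of a longer gene on the same strand. Mt-nd3, the next shortest at 348 bases, had a ratio of 0.906, and Mt-nd5, at 1830 bases, had 1.77. The part of gene length or overlap was not tested. ENSRNOG00000030478, upstream of Mt-nd1, had a ratio of 0.508. Depth and TMM factor moved with the sets: totals were 96576084 to 122910706 reads in the high-numbered rats and 71587993 to 108084377 in the others, and TMM factors were 0.699 to 0.903 and 0.935 to 1.27. Their part in the mixture was not tested.

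**Figure D2:**
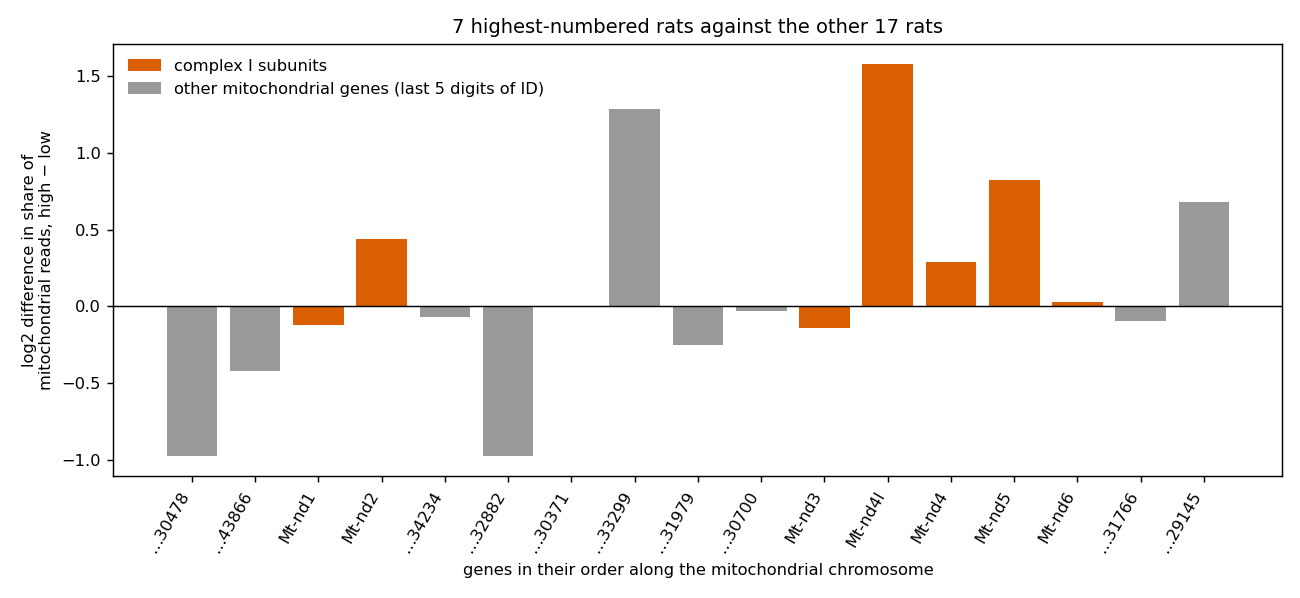
Difference between the 7 high-numbered and the 17 other rats in the mean log2 share of mitochondrial reads, for the mitochondrial genes with at least 1000 reads on average, in their order along the chromosome. Bars of the complex I subunits are orange, with Mt-nd4l, Mt-nd5, Mt-nd2 and Mt-nd4 above 0 and Mt-nd1 and Mt-nd3 below it.

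On the mitochondrial-read scale 4 of the 7 transcripts went together. Over the 24 libraries the shares of Mt-nd2, Mt-nd4l, Mt-nd4 and Mt-nd5 were correlated with each other at Pearson's r of 0.90 to 0.92. Mt-nd1 had r of -0.55 to -0.37 with these 4 over all libraries, -0.36 to 0.04 within the 17 low-numbered rats and 0.40 to 0.56 within the 7 high-numbered ones. Its negative r over all libraries was thus not shared by the high-numbered rats. With the same 4, Mt-nd3 had r of -0.33 to -0.15 over all libraries, -0.04 to 0.54 within the low-numbered and -0.49 to -0.29 within the high-numbered rats. Mt-nd6 had 0.04 to 0.29, -0.26 to 0.43 and 0.35 to 0.72 in the same order. These points share a library and a denominator and hold the split between the rat sets, and within the 17 low-numbered rats the 4 transcripts were correlated with each other at 0.41 to 0.70, and within the 7 high-numbered rats at 0.70 to 0.96.

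Denervated rats, set against intact + vehicle rats, differed in the nerve supply of BAT and in leptin. Scaled to all reads, each of the 7 transcripts had its lowest group mean in denervated rats. Mt-nd3 had 2464 at the lowest, 2767 at the median and 3426 at the highest CPM in denervated rats, against 4257 at the lowest, 4893 at the median and 5326 at the highest in intact + vehicle rats. Mt-nd1 had 11451 at the lowest, 16489 at the median and 17999.5 at the highest CPM in denervated rats, against 18488 at the lowest, 20886 at the median and 25366 at the highest in intact + vehicle rats. For both genes each of the 6 denervated libraries lay below each of the 6 vehicle libraries, as did 0.179% of the 17347 tested genes. With TMM left out the genes without overlap were Mt-nd2, Mt-nd3 and Mt-nd4, beside 0.098% of all tested genes, and Mt-nd1 overlapped, at up to 1.88% of all reads in denervated and from 1.72% in intact + vehicle rats. Mt-nd2 had 9717 at the lowest, 13303 at the median and 19944 at the highest CPM in denervated rats, against 17909.7 at the lowest, 23367 at the median and 33362 at the highest in intact + vehicle rats. Mt-nd4 had 10782 at the lowest, 14825 at the median and 22643 at the highest CPM in denervated rats, against 20278 at the lowest, 25149 at the median and 33717 at the highest in intact + vehicle rats. Mt-nd5 had 3469 at the lowest, 4021 at the median and 8784 at the highest CPM in denervated rats, against 5243 at the lowest, 8524 at the median and 13379.8 at the highest in intact + vehicle rats. In TMM-scaled CPM the 3 antiporter-like subunits overlapped between the groups, with the 2 high-numbered denervated rats lying within or above the range of the low-numbered vehicle rats. Mt-nd4l had 399 at the lowest, 542 at the median and 2357 at the highest CPM in denervated rats, against 1109 at the lowest, 1912 at the median and 3587 at the highest in intact + vehicle rats. Mt-nd6 had 1676 at the lowest, 2010.1 at the median and 2317 at the highest CPM in denervated rats, against 2261 at the lowest, 2692 at the median and 3916 at the highest in intact + vehicle rats. These 2 small subunits overlapped as well, Mt-nd4l most widely, its high-numbered rats standing above all the low-numbered ones in both groups.

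**Figure D3:**
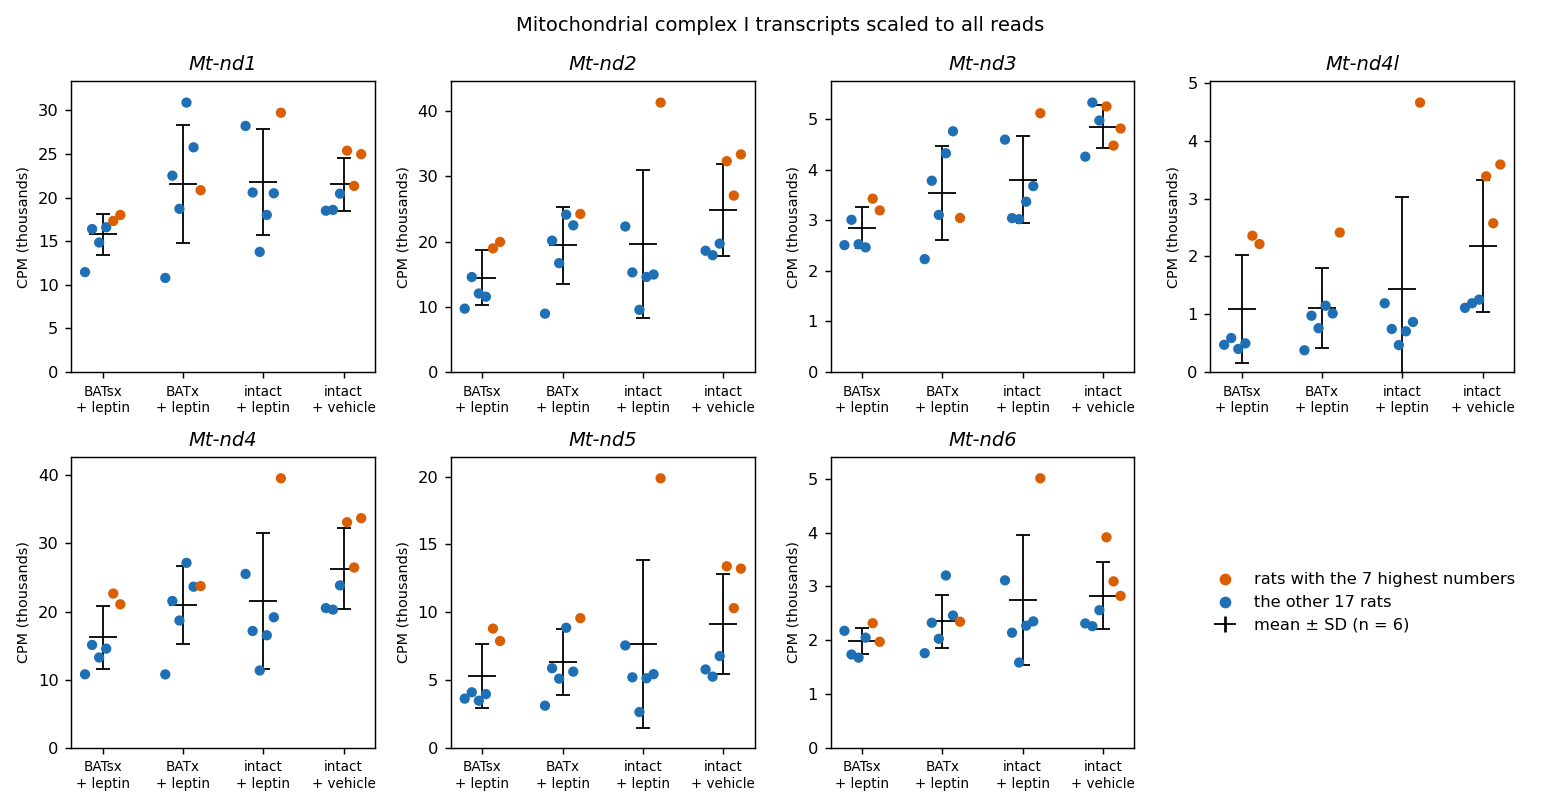
CPM (divided by 1000) of each transcript by group, 1 point per library, with rats of the 7 highest numbers in orange, the others in blue, and black marks for the group mean ± SD (n = 6). Within each colour every denervated library lies below every vehicle library for all 7 transcripts, and the lower bar of Mt-nd4l in intact + leptin rats runs below the axis.

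In edgeR's quasi-likelihood fit over all genes the difference of denervated from vehicle rats, on the log2 scale with its standard error, was -0.45 ± 0.23 for Mt-nd1, -0.78 ± 0.32 for Mt-nd2, -0.76 ± 0.20 for Mt-nd3 and -1.01 ± 0.59 for Mt-nd4l. It was -0.70 ± 0.28 for Mt-nd4, -0.78 ± 0.41 for Mt-nd5 and -0.51 ± 0.23 for Mt-nd6. The median over the 7 was -0.76, beside -0.01 over all tested genes, and all 7 were below 0. None of the 7 passed edgeR at an adjusted p of 0.05, where 0% of the 17347 genes passed. In that fit 4 members had an unadjusted p under 0.05, the lowest being 0.00069 for Mt-nd3. The adjusted p in edgeR was 0.9998 for each of the 7. DESeq2 also called 0 of the 7 and 0% of its genes, while limma with sample weights called 7 of the 7 and 46.4% of all genes. With a rat-number term in edgeR the median was -0.60 and 0 of 7 passed (0% of all genes, lowest adjusted p 0.492).

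An exact two-sided permutation test on log2 CPM, added after the data were seen and adjusted over the 22 tested mitochondrial genes, called 5 of the 7, beside 59.1% of those 22. Its adjusted p was 0.00952 for Mt-nd1 and Mt-nd3, whose raw p of 0.00216 is the smallest the 924 assignments can give. The adjusted p was 0.0159 for Mt-nd6, 0.026 for Mt-nd4 and 0.033 for Mt-nd2, and 0.0762 for Mt-nd4l and Mt-nd5 in the same exact test. Within the rat sets the overlap was gone, although all 7 differences in mean log2 CPM were smaller. They ran from -0.95 to -0.40 within the sets, against -1.25 to -0.45 over all libraries. All 7 members were lower in each denervated library than in each vehicle library of the same set, both in the low-numbered rats (4 denervated, 3 vehicle) and in the high-numbered ones (2 denervated, 3 vehicle), as were 0.657% of all tested genes and 68.2% of the 22 mitochondrial ones. Without TMM this held for 6 of the 7, beside 0.242% and 59.1%. Exchanging labels only within the sets, the exact test called all 7, with adjusted p from 0.00484 to 0.00898, beside 72.7% of the 22 mitochondrial genes. Its raw p of 0.00286, reached by every member but Mt-nd6, is the smallest the 350 assignments can give. The sets were divided from expression in these libraries, so p-values that use them, here and in the other comparisons, are descriptive. The members shared the lower level with most of the mitochondrial chromosome, whose share of all reads averaged 26.7% ± 1.97 in denervated and 35.2% ± 1.17 in vehicle rats.

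Scaled to mitochondrial reads, the same comparison gave 0 of 7 members past the exact permutation test (0% of the 22 genes, lowest adjusted p 0.238; 1 of the 7 had an unadjusted p under 0.05), and 0 of 7 in edgeR on mitochondrial totals. Mt-nd1 took 5.51% at the lowest, 6.22% at the median and 7.04% at the highest of mitochondrial reads in denervated rats, against 5.16% at the lowest, 5.6% at the median and 5.93% at the highest in intact + vehicle rats, a difference of 0.15 on the log2 scale. This was the member with the unadjusted p under 0.05, at 0.0216 in that exact test, and its share ran opposite to its CPM: higher in denervated rats as a share of mitochondrial reads, lower in CPM. Mt-nd2 differed by -0.18 on the log2 scale, Mt-nd3 by -0.17 on the log2 scale and Mt-nd4l by -0.65 on the log2 scale. Within the low-numbered rats the denervated libraries were above the vehicle ones for Mt-nd1 and below them for Mt-nd4l and Mt-nd4 without overlap, beside 18.2% of the 22 genes.

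**Figure D4:**
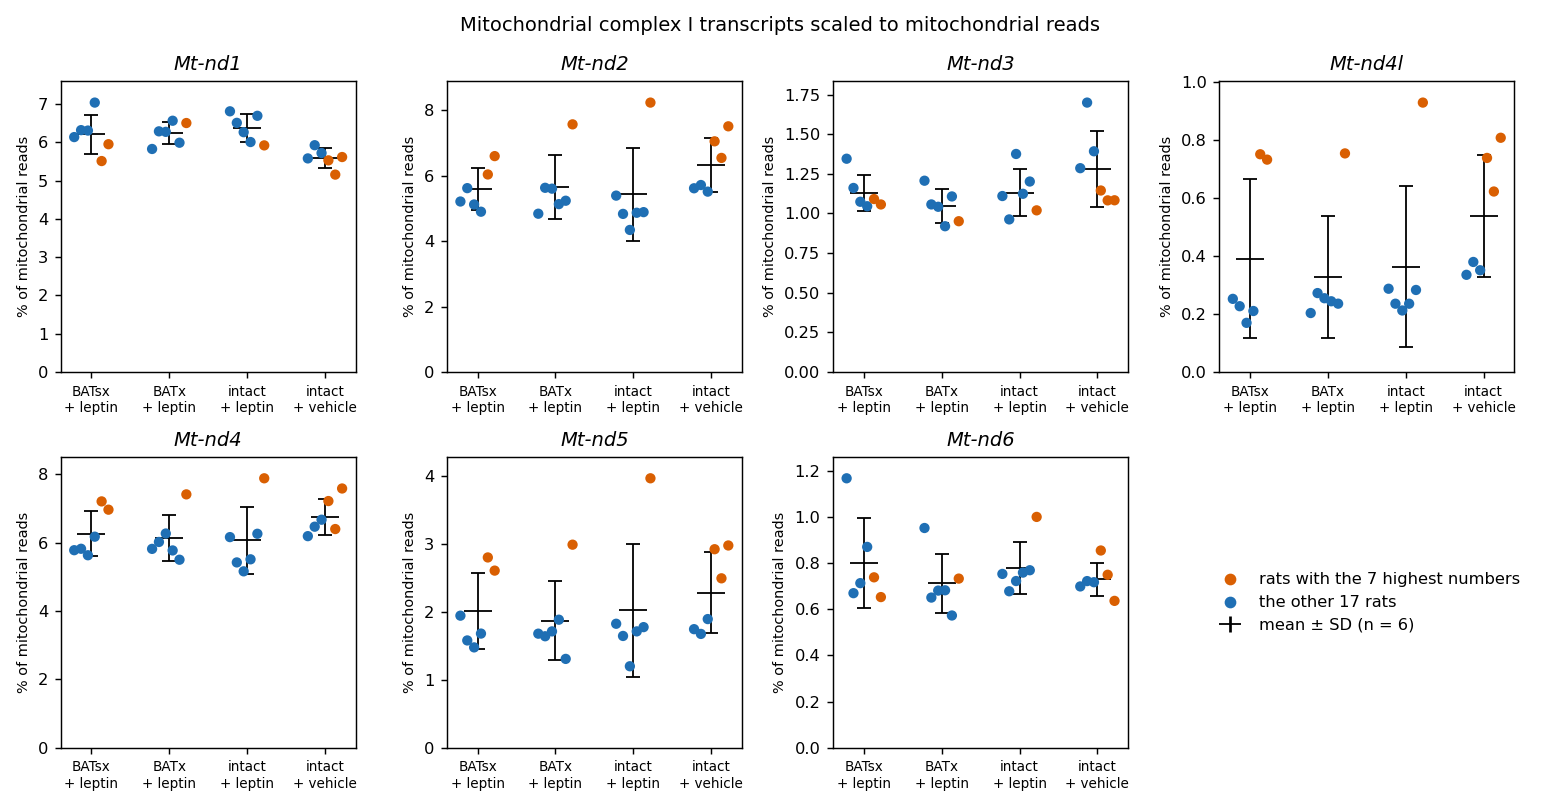
Share of mitochondrial reads (%) of each transcript by group, with points, colours and marks for the mean ± SD (n = 6) as in the plot of CPM. The vehicle group has the lowest mean at Mt-nd1, and at Mt-nd2, Mt-nd4l and Mt-nd5 the orange points lie above the blue ones in every group.

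Denervated rats were also set against intact + leptin rats, which differ from them in the nerve supply of BAT and share the leptin infusion. This comparison uses the same denervated libraries as the last one. Scaled to all reads, Mt-nd1 averaged 15764 ± 2364 CPM in denervated and 21792 ± 6095 CPM in intact + leptin rats (SD, n = 6 each), and Mt-nd3 2855 ± 412 and 3803 ± 866 CPM. The groups overlapped for all 7 members. The log2 difference in edgeR was -0.47 ± 0.23 (SE) for Mt-nd1, -0.44 ± 0.32 for Mt-nd2, -0.41 ± 0.19 for Mt-nd3, -0.40 ± 0.58 for Mt-nd4l, -0.41 ± 0.28 for Mt-nd4, -0.53 ± 0.41 for Mt-nd5 and -0.47 ± 0.23 for Mt-nd6. All 7 were below 0 under TMM, library totals, DESeq2 size factors and nuclear reads alone, with a median of -0.44 beside 0.02 over all genes. None passed, with a lowest adjusted p of 0.295 (Mt-nd3, the 1 member with an unadjusted p under 0.05), and 0% of all genes did. DESeq2 called 0 of 7 and 3.15% of its genes, and limma with sample weights 0 of 7 and 22.8%.

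The intact + leptin values rest partly on 1 rat. Replicate 6, the only high-numbered rat of that group, had the group's highest TMM-scaled CPM of all 7 members, with 4658 CPM of Mt-nd4l against at most 1188 in the other 5. Its TMM factor was 0.699, the lowest of the 24; as a share of all reads it was highest for 5 members, while 3 rats of its group were above it for Mt-nd1 and 3 for Mt-nd3. Without it the median difference of denervated from intact + leptin rats was -0.14, and that of Mt-nd4l was 0.46 and of Mt-nd5 0.033. That leaves only low-numbered intact + leptin rats against a denervated group with 2 high-numbered rats. In the low-numbered rats alone all 7 differences in edgeR were below 0, from -0.70 to -0.26. With a rat-number term in edgeR the median was -0.51 and the lowest adjusted p 0.0725 (Mt-nd4l), so that 0 of 7 passed, beside 6.65% of all genes. The exact permutation test on log2 CPM called 0 of 7 (9.09% of the 22 mitochondrial genes). With labels exchanged only within the sets it called 3, Mt-nd3 at an adjusted p of 0.0194, Mt-nd4l at 0.0349 and Mt-nd1 at 0.037, beside 50% of the 22. As shares of mitochondrial reads the groups were close: Mt-nd1 averaged 6.21% ± 0.504 in denervated and 6.37% ± 0.364 in intact + leptin rats, Mt-nd3 1.13% ± 0.113 and 1.13% ± 0.146, and 0 of 7 passed the exact permutation test (0% of 22, lowest adjusted p 0.998).

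**Figure D5:**
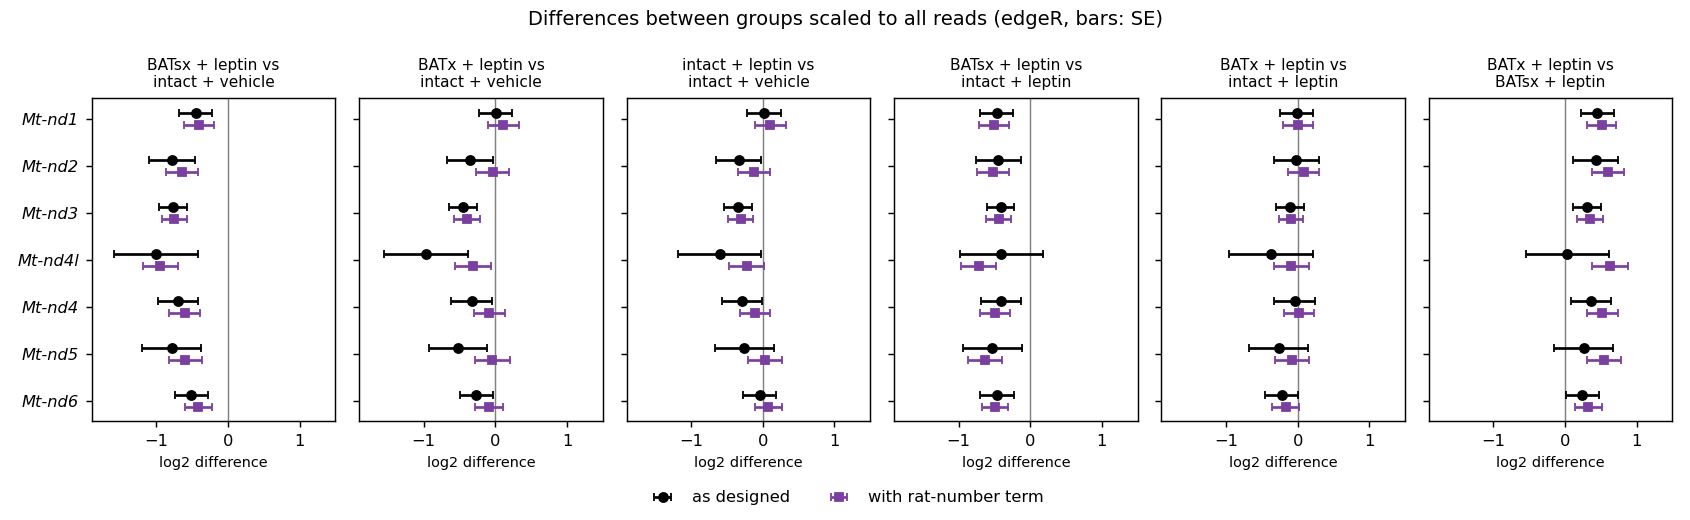
Log2 difference between groups of each transcript scaled to all reads, for the 6 comparisons, from edgeR as designed (black circles) and with a term for the 7 highest-numbered rats (purple squares). Bars are standard errors. All 7 black circles lie below 0 in denervated against vehicle, denervated against intact + leptin and ablated against intact + leptin rats. All 7 lie above 0 in ablated against denervated rats.

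Ablated rats, set against intact + leptin rats, addressed the loss of BAT itself under leptin. Scaled to all reads, Mt-nd1 averaged 21576 ± 6784 CPM in ablated and 21792 ± 6095 CPM in intact + leptin rats (SD, n = 6 each), and Mt-nd4 20923 ± 5705 and 21539.9 ± 9949.5 CPM. The ablated group held both the lowest and the highest CPM of Mt-nd1 in the series, 10783 and 30878. For Mt-nd2 it ran from 8948 to 24233 CPM, against up to 41303 CPM in intact + leptin rats. It overlapped with intact + leptin rats for every member. The 7 log2 differences in edgeR ran from -0.37 to -0.01 with a median of -0.10, beside -0.02 over all genes. All 7 were below 0 with TMM, DESeq2 size factors and nuclear reads alone, and 4 of 7 with library totals. All 7 were above 0 in the low-numbered rats alone, without replicate 6 of the intact + leptin group and in limma with sample weights. None passed edgeR (lowest adjusted p 0.683, no member with an unadjusted p under 0.05), beside 3.03% of all genes, and DESeq2 and limma with sample weights also called 0 of 7, beside 8.22% and 17.4%. With the rat-number term 0 of 7 passed, beside 18.6% of all genes; with the rat number as a linear covariate 2 did, Mt-nd4l and Mt-nd5, beside 23.3%. On the mitochondrial-read scale 0 of 7 passed the exact permutation test (0% of 22 genes, lowest adjusted p 0.719, no unadjusted p under 0.05).

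Ablated and denervated rats, the operated groups, differed by a median of 0.31 on the log2 scale over the 7 members, beside 0.01 over all genes, with all 7 values above 0. The differences ran from 0.03 to 0.45, and edgeR called 0 of 7 (0% of all genes, lowest adjusted p 0.890, no unadjusted p under 0.05), as did DESeq2 (0%) and limma with sample weights (0.311%). Mt-nd6, the minus-strand member, averaged 2354 ± 489 CPM in ablated and 1987 ± 249 CPM in denervated rats. The groups overlapped for each member, and with the rat number as a linear covariate 2 of the 7 turned below 0. The share of mitochondrial reads gave 0 of 7 in the exact permutation test (0% of 22 genes, no unadjusted p under 0.05).

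Leptin itself was addressed by intact + leptin against intact + vehicle rats, with BAT in place in both. Scaled to all reads, Mt-nd3 had 3021 at the lowest, 3521 at the median and 5116 at the highest CPM in intact + leptin rats, against 4257 at the lowest, 4893 at the median and 5326 at the highest in intact + vehicle rats. Mt-nd4l had 466 at the lowest, 805 at the median and 4658 at the highest CPM in intact + leptin rats, against 1109 at the lowest, 1912 at the median and 3587 at the highest in intact + vehicle rats. Mt-nd3 was lower in 4 of the 6 leptin rats than in any vehicle rat, while Mt-nd4l followed the rat numbers, with replicate 6 of the leptin group above all vehicle rats. The log2 difference in edgeR was -0.35 ± 0.19 (SE) for Mt-nd3 and -0.60 ± 0.58 for Mt-nd4l, and the median over the 7 was -0.29, beside -0.03 over all genes. None passed (lowest adjusted p 0.267, Mt-nd3; no unadjusted p under 0.05), beside 0.674% of all genes. DESeq2 called 0 of 7 and 10.3% of its genes, and limma with sample weights 6 of 7 and 60.7%. With the rat-number term the median was -0.11 and 0 of 7 passed, beside 6.13%. Without replicate 6 of the leptin group, which leaves only low-numbered leptin rats against a vehicle group with 3 high-numbered rats, edgeR called Mt-nd4l at a log2 difference of -1.46 and an adjusted p of 0.0465, beside 25.4% of all genes, against 0.674% with all libraries.

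On the mitochondrial-read scale Mt-nd1 had the lowest unadjusted p of the 7 members in the leptin comparison, though none passed. It took 5.92% at the lowest, 6.39% at the median and 6.81% at the highest of mitochondrial reads in intact + leptin rats, against 5.16% at the lowest, 5.6% at the median and 5.93% at the highest in intact + vehicle rats. Of the 6 leptin rats 5 lay above every vehicle rat, and replicate 6 lay just below the highest vehicle rat. The log2 difference was 0.19, with p = 0.00433 and an adjusted p of 0.0714 in the exact permutation test, so that 0 of 7 passed (0% of 22 genes; Mt-nd1 alone had an unadjusted p under 0.05). With labels exchanged within the rat sets the adjusted p was 0.0655 in the exact test (0 of 7, 0% of 22). Mt-nd2 differed by -0.24 on the log2 scale, Mt-nd3 by -0.17 and Mt-nd4l by -0.70. Among the low-numbered rats (5 leptin, 3 vehicle) Mt-nd1 took 6.01% to 6.81% with leptin and 5.58% to 5.93% with vehicle. Mt-nd2 took 4.34% to 5.39% with leptin and 5.51% to 5.71% with vehicle there, and Mt-nd4l 0.212% to 0.287% and 0.335% to 0.379%. These 3 did not overlap, Mt-nd1 being higher with leptin and the other 2 lower, beside 36.4% of the 22 mitochondrial genes that did not overlap. Without replicate 6 of the leptin group 4 of the 7 passed the exact permutation test at an adjusted p of 0.0204, Mt-nd1 upward and Mt-nd2, Mt-nd4l and Mt-nd4 downward, in a comparison where the high-numbered rats were then all vehicle rats, and beside 31.8% of the 22 genes.

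Ablated rats, set against intact + vehicle rats, differed in both BAT and leptin, and share the vehicle libraries with the comparisons above. The median log2 difference over the 7 members scaled to all reads was -0.35, beside 0.03 over all genes, and Mt-nd4l differed by -0.97 ± 0.59 (SE) and Mt-nd3 by -0.45 ± 0.19. None passed edgeR (0% of all genes, lowest adjusted p 0.457; 1 member, Mt-nd3, had an unadjusted p under 0.05). DESeq2 called 0 of 7 and 0.121% of its genes, limma with sample weights 6 of 7 and 55.7%, and edgeR with the linear rat number 5 of 7 and 39.2%. With the rat-number term the median was -0.08 and 0 of 7 passed (0% of all genes). The exact permutation test on log2 CPM called 0 of 7 (4.55% of 22), and 0 of 7 within the rat sets (0% of 22).

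Scaled to mitochondrial reads, Mt-nd1 passed the exact permutation test over all libraries in this comparison, and no other member did in any of the 6 comparisons. It took 5.83% at the lowest, 6.28% at the median and 6.57% at the highest of mitochondrial reads in ablated rats, against 5.16% at the lowest, 5.6% at the median and 5.93% at the highest in intact + vehicle rats. It was 1.12-fold higher in ablated rats, with the lowest ablated rat inside the vehicle range, and p = 0.00433 with an adjusted p of 0.0476 in the exact permutation test, beside 9.09% of the 22 genes called. In CPM Mt-nd1 averaged 21576 ± 6784 CPM in ablated and 21529 ± 3024 CPM in vehicle rats. The call was narrow: leaving out any of 10 of the 12 libraries moved the adjusted p to 0.0635 to 0.0952, and with a denominator that leaves out the 7 members it was 0.143. Within the rat sets the exact test called 2 members, Mt-nd1 1.11-fold and Mt-nd3 0.768-fold, each at an adjusted p of 0.0491, beside 18.2% of the 22 genes. Mt-nd3 took 0.919% to 1.21% of mitochondrial reads in the 5 low-numbered ablated rats and 1.29% to 1.7% in the 3 low-numbered vehicle rats, without overlap. Mt-nd4l, at 0.203% to 0.272% and 0.335% to 0.379%, did not overlap there either, beside 22.7% of the 22 genes. Without replicate 6 of the ablated group 3 members were called, Mt-nd1 upward and Mt-nd4l and Mt-nd4 downward, beside 27.3% of the 22 genes. That leaves low-numbered ablated rats alone against a vehicle group with 3 high-numbered rats, and Mt-nd4l and Mt-nd4 were among the members with a higher share in high-numbered rats.

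Side by side, each of the 3 leptin-treated groups had a higher mean share of Mt-nd1 than the vehicle group they were all set against, at 6.21% ± 0.504 in denervated, 6.24% ± 0.287 in ablated and 6.37% ± 0.364 in intact + leptin rats and 5.59% ± 0.254 in intact + vehicle rats (SD, n = 6 each). Mt-nd3 had 1.13% ± 0.113, 1.05% ± 0.105 and 1.13% ± 0.146 in the leptin-treated groups in that order, and 1.28% ± 0.238 with vehicle. Mt-nd6 had 0.801% ± 0.195, 0.711% ± 0.129 and 0.779% ± 0.113, and 0.729% ± 0.0719 with vehicle, all within each other's spread. Mt-nd2, Mt-nd4l, Mt-nd4 and Mt-nd5 each had a lower mean share in every leptin-treated group than with vehicle. Mt-nd2 had 5.58%, 5.67% and 5.42%, and 6.32% with vehicle. The vehicle group holds 3 of the 7 high-numbered rats. In those 7 rats the mean share of Mt-nd1 was lower than in the others, and that of Mt-nd2, Mt-nd4l, Mt-nd4 and Mt-nd5 higher.

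The genes whose level followed the members most closely were sought over the 24 libraries among 13376 other genes with a mean of at least 1 CPM, as Pearson's r of log2 CPM with the median profile of the 7. The 5 highest were all mitochondrial: ENSRNOG00000030700 (r = 0.94, chromosome MT, bases 8599 to 9382), ENSRNOG00000031766 (0.89), ENSRNOG00000033299 (0.89), ENSRNOG00000034234 (0.89) and ENSRNOG00000030371 (0.89). Outside chromosome MT the closest was ENSRNOG00000010985 on chromosome 6 (r = 0.85, mean 26.4 CPM), which lies at 103964060 to 103990225 of mRatBN7.2. The next 4 were ENSRNOG00000007333 (chromosome 6, r = 0.85), ENSRNOG00000017784 (chromosome 2, 0.85), ENSRNOG00000010728 (chromosome 9, 0.83) and ENSRNOG00000058593 (chromosome 6, 0.83). All points share depth, TMM scaling and the split between rat sets. Without TMM 4 of the 5 mitochondrial genes stayed in the list but only 1 of the 5 nuclear ones, ENSRNOG00000010728.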

How the data were processed

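Messenger RNA of the heart septum was sequenced in 24 rats, 6 in each of 4 groups taken from the labels. The deposited table holds raw counts of reads per gene, made by the authors with featureCounts 2.0.6 on Ensembl 113 annotation of mRatBN7.2, per the file headers. The submitters' processing notes give featureCounts 2.0.2, STAR 2.7.10a, DESeq2 and R 4.4.1. Counts of 2 occur 19013 times and counts of 1 occur 5161 times, so that mates appear to have been counted separately, and 1 fragment then gives up to 2 reads. There were 5 count columns that match no listed sample, and they were not used. No 2 libraries held identical values.

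The files give Ensembl IDs alone: 0 of the 30562 IDs matched the reference table, and the 7 symbols were set by ID. The members and lists were chosen with earlier results of these data known. Each member was given as TMM-scaled CPM and as a percentage of mitochondrial reads. The all-read test was edgeR 4.0.16's quasi-likelihood test (R 4.3.3, robust, TMM, filterByExpr, all 24 libraries in 1 fit), adjusted by Benjamini-Hochberg over 17347 genes. The mitochondrial-read test was an exact two-sided permutation test on the log2 percentage with 0.5 reads added, computed with Python 3.11.15, numpy 2.4.6, pandas 2.3.3 and scipy 1.17.1 and adjusted over the 22 mitochondrial genes tested. DESeq2 1.42.0 and limma 3.58.1 (voom with sample quality weights) were alternatives, as were other scalings, filters, denominators, rat-number terms, a replicate block and leaving out each library. Named genes outside the family are the 5 overall and the 5 outside chromosome MT most correlated with the members. In simulated counts of the intact + leptin against intact + vehicle comparison (17347 genes), edgeR recovered 17% of 100 genes changed 1.5-fold and 62% of 100 changed 2-fold, with 0 false among 79 calls. The simulated spread was that within the rat sets, with no split between them. These rates therefore do not carry over to the real libraries, which hold that split. Figures were drawn with matplotlib 3.10.9. Each library is 1 rat, so p-values measure the spread between rats.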

Additional observations from a re-analysis of the deposited data

Results flagged for a closer look

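In 9 of 56 sets of 6 libraries (7 genes, 2 scales, 4 groups) 1 library stood apart by Dixon's criterion, which chance meets in about 1 in 20 sets. All 9 were replicate 6 of the intact + leptin group or replicate 6 of the ablated group, the only high-numbered rat of each.

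In the intact + leptin group replicate 6 had 4658 CPM of Mt-nd4l, against 466 to 1188 CPM in the other 5 rats, and 19869 CPM of Mt-nd5, against 2631 to 7542 CPM. As shares of mitochondrial reads it had 8.23% of Mt-nd2 (4.34% to 5.39% in the others), 0.928% of Mt-nd4l (0.212% to 0.287%), 3.96% of Mt-nd5 (1.2% to 1.82%) and 0.999% of Mt-nd6 (0.677% to 0.768%).

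In the ablated group replicate 6 had 7.57% of Mt-nd2, against 4.84% to 5.63% in the other 5 rats, 0.753% of Mt-nd4l, against 0.203% to 0.272%, and 2.98% of Mt-nd5, against 1.31% to 1.88%.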

How the results depend on the processing

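Scaled to all reads, edgeR called 0 of 7 members in each of the 6 comparisons. Limma with sample weights called 6 in intact + leptin against vehicle, 6 in ablated against vehicle and 7 in denervated against vehicle rats. It called 60.7%, 55.7% and 46.4% of all genes in the same order. The rat number as a linear covariate gave 2 in ablated against intact + leptin and 5 in ablated against vehicle rats, beside 23.3% and 39.2% of all genes. The exact permutation tests on log2 CPM were chosen after seeing the data. For denervated against vehicle rats they gave 5 over all libraries (59.1% of the 22 mitochondrial genes) and 7 within the rat sets (72.7%). For denervated against intact + leptin rats they gave 3 within the sets, beside 50% of the 22. The sets were themselves divided from expression in these libraries. On the mitochondrial-read scale the 1 call was Mt-nd1 in ablated against vehicle rats, beside 9.09% of the 22 genes. It became 0 calls with the members left out of the denominator, and with edgeR on mitochondrial totals. Within the rat sets it became 2 calls, beside 18.2% of the 22. The cause was not tested. Low-numbered rats alone and the replicate block also gave 0 calls, but with 56 and 64 assignments a call there needs 8 and 14 of the 22 genes at the smallest p, where 5 and 6 reached it, so these 0 counts say nothing about stability.

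Leaving out each library in turn gave 0 to 1 calls for intact + leptin against vehicle on all reads, beside 1 to 4454 of all genes, and 0 to 4 on mitochondrial reads, beside 0 to 7 of the 22. It gave 0 to 3 for ablated against vehicle on mitochondrial reads, beside 0 to 6 of the 22. For denervated against intact + leptin rats it gave log2 differences of -0.79 to 0.46 for Mt-nd4l and -0.73 to 0.033 for Mt-nd5. Both of the highest values came without the only high-numbered rat of the intact + leptin group. Over all 1848 single-gene alternatives 137 changed sign, 0 of them past the threshold, and 0 of the 175 on all reads in denervated against vehicle rats. Without TMM the median of all genes moved to 0.18 in denervated against vehicle, 0.17 in ablated against vehicle and 0.10 in denervated against intact + leptin rats.

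The labels link rats with the same replicate number by that number alone, but replicate 6 was a high-numbered rat in every group. Pairs with the same number therefore tend to share the rat set as well. Of these 36 pairs 24 had deviations correlated above 0.1, with a lowest r of -0.34. Their median r was 0.20, against -0.01 in pairs with unlike numbers. The replicate block moved the count of all genes called in intact + leptin against vehicle rats to 3635, against 117 without it, and called 0 of 7 members on all reads in every comparison. Counts of all genes called moved by over 1.5 times under other settings as well: that comparison gave 1610 with DESeq2, 1063 with the rat-number term and 3 with no filter on low counts. In counts simulated with 6 rats a group and only the spread within the rat sets, differences of 1.5-fold were mostly not detected.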
